A study of Mus musculus with 6 samples.

Results

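The genes described here encode the proteins of the mitochondrial ribosome. They were taken by name: protein-coding genes of the deposited liver expression table whose symbol begins with Mrpl or Mrps followed by a number. The rule gave 78 of the 45777 genes in the table, and all 78 had enough reads to be tested among 16197 genes. By structure 51 belong to the large subunit, among them Mrps18a and Mrps30 in spite of their names, and 26 to the small subunit. Mrps36 was counted in neither, because its protein is now known as a subunit of the 2-oxoglutarate dehydrogenase complex.

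The samples were livers of C57BL/6 mice aged 10 weeks, for which the labels name no substrain and no sex. In both groups both copies of Pak4, a serine/threonine kinase of the p21-activated family, carry loxP sites. The 3 controls (called WT) had no Cre, and the 3 Pak4_KO livers also carried Alb-Cre, in which the albumin promoter drives Cre recombinase in hepatocytes, so that other liver cells keep the gene. Total RNA of whole liver was used, and less RNA per cell cannot be told apart from fewer cells of a type in such data.

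Mitochondria keep a small genome whose messenger RNAs encode core subunits of the respiratory chain and ATP synthase. These are translated inside the organelle by a ribosome of its own, whose RNAs come from the mitochondrial genome and whose proteins are all made from nuclear genes and imported. Many of these proteins descend from bacterial ribosomal proteins and others are particular to mitochondria. The nuclear genes are scattered over the chromosomes, and factors such as NRF1, GABP (NRF-2) and YY1 are known regulators of many nuclear genes for mitochondrial proteins.

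Promoters of 3 members are printed because the results turn on the gene pairs or the chromosome they belong to. Mrps12 is the member that passed the test over all genes, and its window also holds the start of the neighbouring Sars2. Mrpl44 shares a promoter region with the changed gene Wdfy1, and Mrpl17 is another member on the chromosome of Pak4. Each window runs from 250 bases before to 50 bases after the transcript start and was read from RefSeq (GRCm38.p6), 5′ to 3′ on the strand of the gene. The positions are chr7:28741772-28742071 on the minus strand for Mrps12, chr1:79775768-79776067 on the plus strand for Mrpl44 and chr7:105811038-105811337 on the minus strand for Mrpl17. Capitals mark matches, on either strand, to CATGCGC (NRF1 core), CCGGAAG (GABP), AAGATGG (YY1) or CCAAT (the box of that name).
Mrps12: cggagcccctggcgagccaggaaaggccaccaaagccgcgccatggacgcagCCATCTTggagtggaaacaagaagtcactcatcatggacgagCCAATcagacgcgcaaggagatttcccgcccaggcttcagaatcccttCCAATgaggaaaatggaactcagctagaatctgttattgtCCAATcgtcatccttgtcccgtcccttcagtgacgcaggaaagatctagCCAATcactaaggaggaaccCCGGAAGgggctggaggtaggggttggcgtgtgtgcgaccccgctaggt
Mrpl44: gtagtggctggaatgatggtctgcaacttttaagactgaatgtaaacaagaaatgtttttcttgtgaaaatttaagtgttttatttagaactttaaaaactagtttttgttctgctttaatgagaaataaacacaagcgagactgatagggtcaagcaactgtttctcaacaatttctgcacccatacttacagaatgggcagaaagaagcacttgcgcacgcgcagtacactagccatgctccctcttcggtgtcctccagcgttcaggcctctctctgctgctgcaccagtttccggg
Mrpl17: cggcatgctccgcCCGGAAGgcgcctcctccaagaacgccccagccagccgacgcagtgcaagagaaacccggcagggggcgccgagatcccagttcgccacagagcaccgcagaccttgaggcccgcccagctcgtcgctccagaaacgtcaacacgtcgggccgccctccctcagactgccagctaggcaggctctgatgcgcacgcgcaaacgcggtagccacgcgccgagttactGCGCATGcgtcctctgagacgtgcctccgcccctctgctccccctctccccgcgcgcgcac

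The Mrps12 window held a YY1 match starting at -198, CCAAT at -156, -108, -68 and -19, and a GABP match at 1. In the Mrpl17 window a GABP match began at -237 and an NRF1 match at -11. None of the 4 letter strings occurred in the Mrpl44 window. RefSeq windows were matched for 69 of the 78 members and for 17519 protein-coding genes of the table. The GABP string was found in 26 of the 69 windows (37.7%) and in 12.9% of the protein-coding windows. The YY1 string was in 13 (18.8%, against 7.15%), the NRF1 string in 8 (11.6%, against 5.41%) and CCAAT in 27 (39.1%, against 42.3%). These are matches of letters in a window, not measured binding.

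Library totals ran from 39603272 to 52521400 reads, so that Mrps12 rested on 317 to 928 reads in each library. The labels do not say that the replicates are separate animals, and p-values measure only the spread between these libraries. CPM are counts scaled to the library total and by edgeR's TMM factors. Hepatocyte markers summed to 42200, 50300 and 56600 CPM in WT and to 59100, 55700 and 52700 CPM in Pak4_KO. Albumin alone was at 23200, 31000 and 34500 CPM in WT and at 38500, 35800 and 35700 CPM in Pak4_KO, without overlap. Of the 7 hepatocyte markers 3 were positive and 4 negative, 0 were called, and 1 had all Pak4_KO libraries below all WT libraries. All 5 neutrophil markers had negative log2 fold changes, none of them called, and their summed CPM was 29.0 to 51.6 in WT and 19.2 to 23.7 in Pak4_KO. The 5 Kupffer cell markers were also all negative and not called, at summed CPM of 227 to 290 in WT and 173 to 232 in Pak4_KO. Of the other lists, cholangiocyte markers were positive for 4 of 5 genes (29.9 to 48.1 summed CPM in WT and 38.7 to 64.4 in Pak4_KO), endothelial markers for 5 of 5 (197 to 246 and 198 to 282) and stellate cell markers for 4 of 5 (155 to 258 and 146 to 296). None of these was called. The biliary marker Epcam and the stellate marker Lrat had all Pak4_KO libraries above all WT libraries, and 2 of the 5 neutrophil markers had them below. Over all tested genes 7.35% lay above and 6.06% below in this way. No marker in these 5 lists was at 0 in all libraries, and the part of these cells in the results below was not tested.

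Pak4 itself was read at 5.93, 7.15 and 6.44 CPM in the WT libraries and at 1.37, 2.24 and 1.90 CPM in the Pak4_KO libraries. The groups did not overlap, and Pak4 was 3.54-fold lower in Pak4_KO (log2 fold change -1.82, SE 0.24, edgeR adjusted p = 0.0169). These are counts over the whole gene and do not separate the part between the loxP sites. Left-out libraries ended this call in 3 cases, with adjusted p of 0.0936 without Pak4_KO replicate 3, 0.0562 without WT replicate 1 and 0.0608 without WT replicate 2.

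Mrps12 was the 1 member of the family that passed the test over all genes. It encodes the mitochondrial counterpart of bacterial ribosomal protein S12, which lines the decoding centre of the small subunit and in bacteria is the site of streptomycin resistance mutations. The gene (NCBI gene 24030, chr7:28739641-28741821 in GRCm38.p6, minus strand) stood at 17.9, 19.5 and 17.0 CPM in the WT libraries and at 8.05, 7.77 and 6.34 CPM in the Pak4_KO libraries. All 3 Pak4_KO libraries lay below all 3 WT libraries. The mean fell from 18.1 ± 1.30 to 7.39 ± 0.914 CPM (SD, n = 3 each), which is 40.7% of the WT level. In the edgeR quasi-likelihood test, adjusted over all 16197 genes, the log2 fold change was -1.30 (SE 0.16, adjusted p = 0.0122).

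Beside this, 0.204% of all tested genes were called lower and 0.265% higher, 76 genes in total, and no other member was among them. The direction of Mrps12 was the same in each of 6 fits that left out 1 library, but the call was lost in 4 of them. The adjusted p was 0.0708 without Pak4_KO replicate 2, 0.0585 without Pak4_KO replicate 3, 0.0562 without WT replicate 1 and 0.0507 without WT replicate 2. Mrps12 had no processed pseudogene resembling it and shared no exon bases with another gene in the GENCODE M21 annotation.

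**Figure D1:**
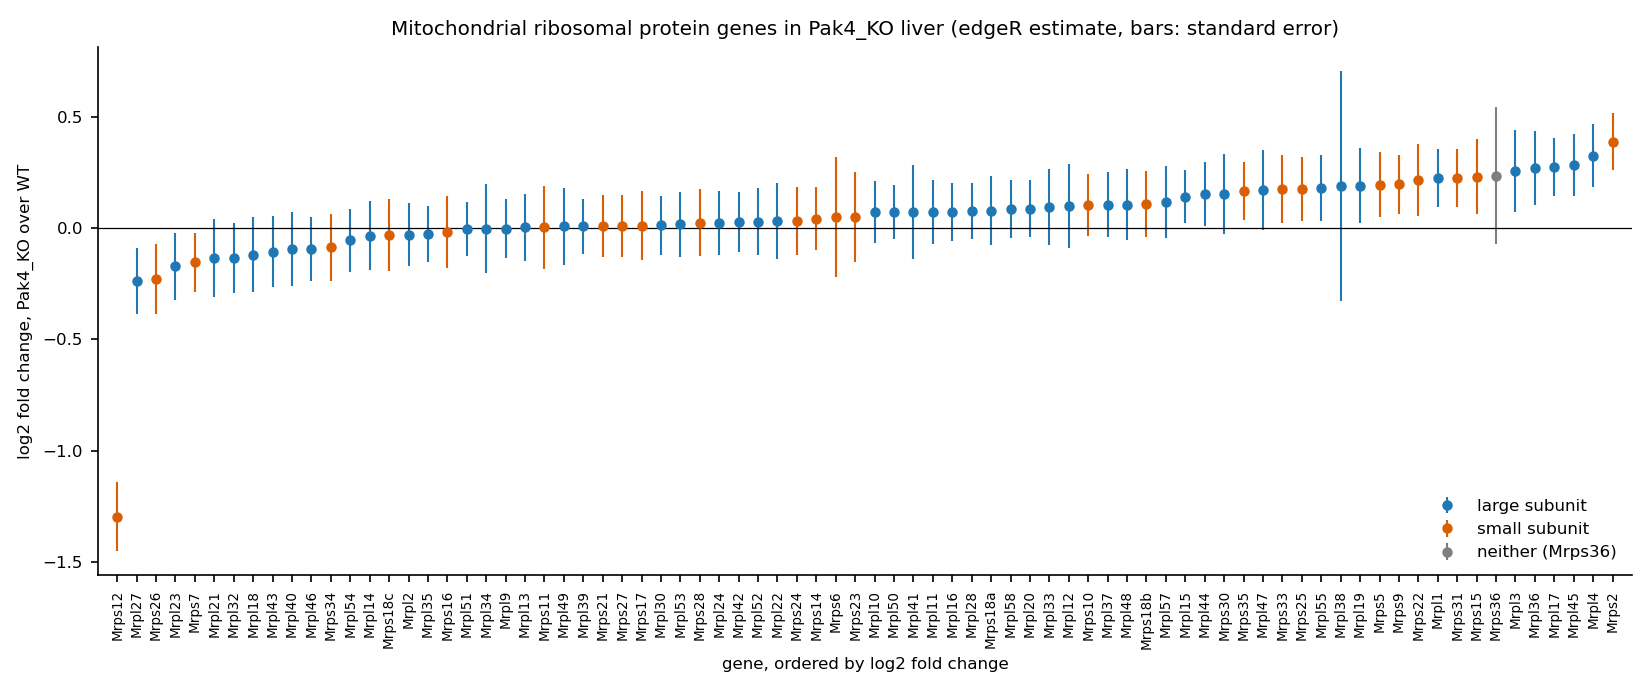
Log2 fold change of Pak4_KO over WT for each of the 78 genes, in order, with bars for the standard error and colours for the subunit (3 libraries per group). Mrps12 stands at -1.30, and the other 77 lie between -0.24 and 0.39.

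Set against its own complex, Mrps12 was also low in each Pak4_KO library. Its log2 CPM minus the median log2 CPM of the other 77 members was 0.29, 0.35 and 0.05 in the WT libraries and -0.93, -1.10 and -1.08 in the Pak4_KO libraries. These values are not scaled by length, so only their difference between the groups is read. The difference of the group means was -1.27, with an exact two-sided permutation p of 0.1, the smallest that 3 libraries against 3 can give. Against the small-subunit members alone the difference was -1.31, and against members not on chromosome 7 it was -1.29. Per length, in the deposited TPM, Mrps12 stood at 41.1, 43.3 and 35.7 TPM in WT and at 19.0, 17.5 and 15.5 TPM in Pak4_KO. The median member had 24.5 TPM over all libraries, so Mrps12 was above that level in each WT library and below it in each Pak4_KO library.

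The nearest gene to Mrps12 on its promoter side encodes another protein of mitochondrial translation. Sars2, the mitochondrial seryl-tRNA synthetase, which charges tRNA with serine in the organelle, is transcribed in the opposite direction, and 172 bases separate the start sites in GENCODE M21. Sars2 was read at 6.08, 5.64 and 5.78 CPM in WT and at 6.44, 6.82 and 7.46 CPM in Pak4_KO. Every Pak4_KO library was above every WT library, but the change was not called (log2 fold change 0.24, SE 0.16, edgeR adjusted p = 0.783). The log2 CPM of Mrps12 minus that of Sars2 was 1.49, 1.71 and 1.47 in WT and 0.30, 0.18 and -0.22 in Pak4_KO. The difference of means was -1.47 (exact two-sided permutation p = 0.1, the smallest possible), and of this head-to-head pair Mrps12 was below, and Sars2 above, its WT range in every Pak4_KO library. This comparison with Sars2 was added after the data were seen.

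**Figure D2:**
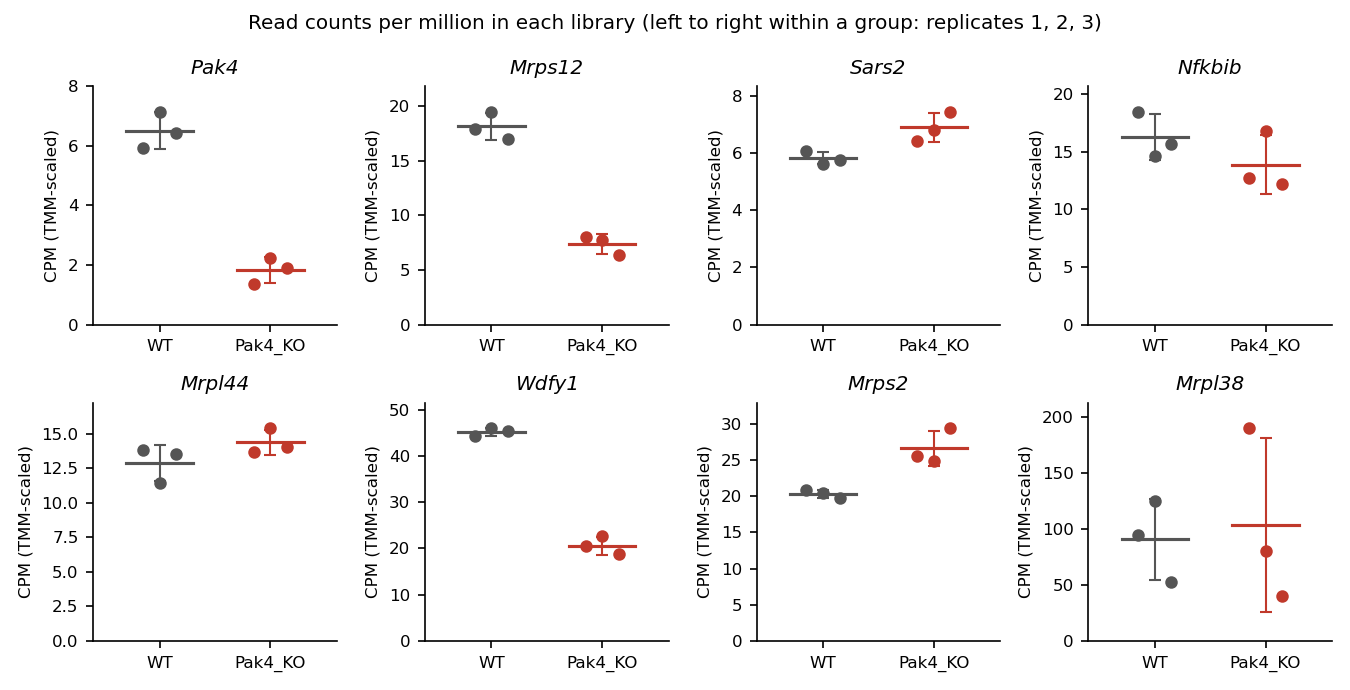
CPM in each library for 8 genes: points are libraries, the horizontal bar is the group mean and the error bar the SD (n = 3 per group). Pak4, Mrps12 and Wdfy1 have all Pak4_KO points below all WT points, whereas Sars2 and Mrps2 have them above, and Mrpl38 ranges from 40.5 to 190 CPM.

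Mrps12 lies 141 kb from Pak4, with 3 genes of the table between them. No second gene of this stretch of chromosome 7 was called. Of 26 tested genes within 0.5 Mb of Pak4, Pak4 not counted, Mrps12 alone passed the test. Over all tested genes 0.204% were called lower and 0.265% higher, so 26 genes would give few calls anyway. The groups did not overlap for Fcgbp, Zfp36 and Sars2 (3 higher in Pak4_KO) and Mrps12, Ech1 and Lgals4 (3 lower). Over all tested genes 7.35% were higher and 6.06% lower in this way. All of these except Sars2 had an unadjusted edgeR p under 0.05, as had 8.21% of all tested genes. Among the 26, 17 had positive and 9 negative log2 fold changes, and the median was 0.06. In the wider window of 1 Mb, Mrps12 was again the 1 called gene, of 49 tested.

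Fbxo17, an F-box protein gene between Pak4 and Mrps12, was hardly read, at 0 to 0.320 CPM. Past Sars2, the NF-kappa-B inhibitor gene Nfkbib was read at 18.5, 14.6 and 15.7 CPM in WT and at 12.7, 16.8 and 12.2 CPM in Pak4_KO, with overlapping groups (log2 fold change -0.23, SE 0.18). The deacetylase gene Sirt2 was at 9.64 to 12.5 CPM in WT and at 11.8 to 13.6 CPM in Pak4_KO, also overlapping (log2 fold change 0.15, SE 0.16). On the other side of Pak4, Gmfg, which encodes an actin-regulating protein, differed by 0.28 (SE 0.28) with overlapping groups.

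At the edges of this range, chosen after their values were seen, the lowest log2 fold change after Mrps12 was -0.54 for Lgals4, a galectin gene (edgeR adjusted p = 0.377). The highest belonged to Fcgbp, an Fc gamma binding protein gene, at 0, 0.0842 and 0 CPM in WT and 2.36, 0.296 and 0.860 CPM in Pak4_KO. Fcgbp was not called by edgeR (adjusted p = 0.149), but it was called by the DESeq2 Wald test (adjusted p = 0.000348).

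**Figure D3:**
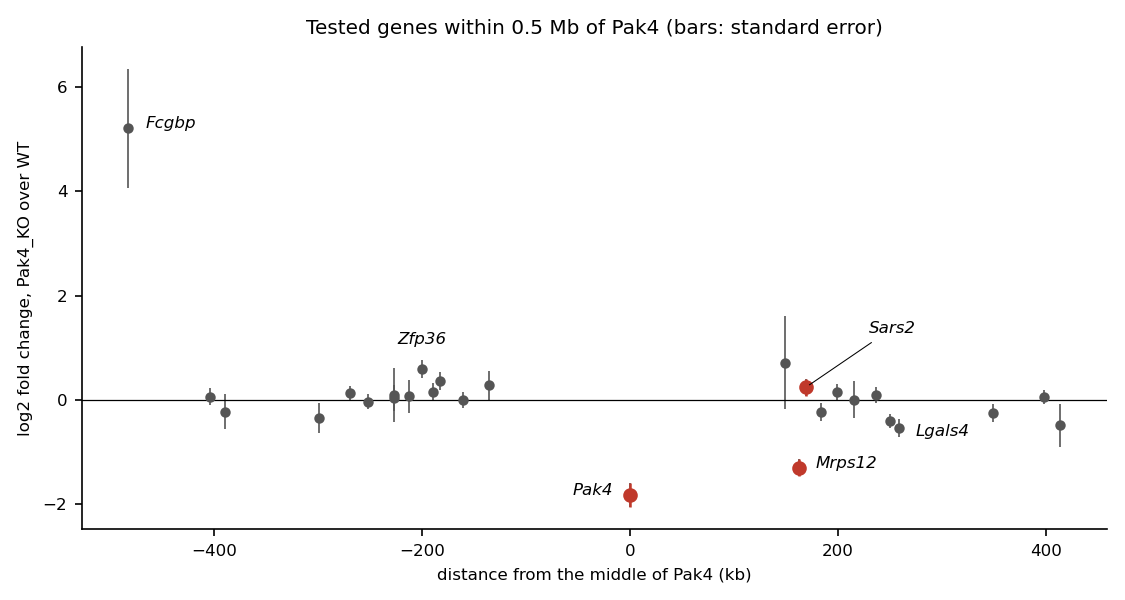
Log2 fold change, with standard error bars, of the tested genes within 0.5 Mb of Pak4 against the distance of their midpoint from the middle of Pak4 in kb (3 libraries per group). Pak4, Mrps12 and Sars2 are red: Mrps12 is at -1.30 and Sars2, directly beside it, at 0.24.

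None of the other 77 members was called. Their log2 fold changes ran from -0.24 to 0.39. A limit of 0.4 on either side of zero, just above the largest of these, held 98.7% of the family and 76.8% of all tested genes. All tested genes had a lower median level (5.17 TPM, against 24.5 TPM for the members), and for this share genes of like level were not compared. In the whole family 57 members were positive and 21 negative, the median was 0.06, and the quartiles were -0.002 and 0.16, against a median of 0.004 over all tested genes. Without WT replicate 1 the family median was -0.01. Unadjusted p-values under 0.05 were found for 3 members (3.85%), against 8.21% of all tested genes.

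The groups did not overlap, with Pak4_KO higher, for 9 members (11.5%, against 7.35% of all tested genes): Mrpl58, Mrps35, Mrps9, Mrpl1, Mrps31, Mrpl17, Mrpl45, Mrpl4 and Mrps2. With Pak4_KO lower this held for Mrps12 alone (1.28%, against 6.06%). None of the 9 was called.

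The highest log2 fold change belonged to Mrps2, a bacterial-type protein of the small subunit. Mrps2 was read at 20.8, 20.4 and 19.7 CPM in WT and at 25.6, 24.9 and 29.4 CPM in Pak4_KO (log2 fold change 0.39, SE 0.13, edgeR adjusted p = 0.418). All Pak4_KO libraries were above all WT libraries, yet the difference did not pass the test over all genes. Mrpl4, the counterpart of the bacterial protein L4 near the wall of the peptide exit tunnel, was at 9.24, 9.30 and 8.73 CPM in WT and at 11.1, 10.8 and 12.3 CPM in Pak4_KO (0.33, SE 0.14, adjusted p = 0.608). Mrpl45, which in human cells helps hold the ribosome at the inner membrane, was at 16.6, 17.3 and 19.4 CPM in WT and at 20.2, 24.0 and 20.7 CPM in Pak4_KO (0.28, SE 0.14, adjusted p = 0.664). These groups again did not overlap. Mrpl17 (0.28, SE 0.13) and Mrpl36 (0.27, SE 0.17), both bacterial-type proteins of the large subunit, complete the 5 highest values, and Mrpl36 had overlapping groups.

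The lowest values after Mrps12 were smaller in size. Mrpl27, the counterpart of the bacterial protein L27 beside the peptidyl transferase centre, was at 18.5, 18.2 and 16.8 CPM in WT and at 15.7, 16.9 and 12.8 CPM in Pak4_KO (log2 fold change -0.24, SE 0.15, edgeR adjusted p = 0.758). The groups overlapped, since Pak4_KO replicate 2 was above WT replicate 3. Mrps26, a mitochondria-specific protein of the small subunit, differed by -0.23 (SE 0.16), Mrpl23, the counterpart of the exit-tunnel protein L23, by -0.17 (SE 0.15) and Mrps7, a bacterial-type small-subunit protein, by -0.15 (SE 0.13). All 3 had overlapping groups.

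Chromosome 7 carries 6 members, and the other 5 are 50.2 to 114 Mb from Pak4. Mrps11 and Mrpl46, a head-to-head pair with bacterial-type and mitochondria-specific products, had log2 fold changes of 0.005 (SE 0.19) and -0.09 (SE 0.14). Mrpl48, a mitochondria-specific protein of the large subunit, was at 0.11 (SE 0.16). With Mrpl23 at -0.17 and Mrpl17 at 0.28, these members lay on both sides of zero. The sign for Mrps11 turned under other scalings and for Mrpl48 without 1 library, as given in the closing section.

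No difference between subunits or between ancestral classes was resolved. The median log2 fold change was 0.07 for the large subunit (36 of 51 positive) and 0.05 for the small subunit (20 of 26 positive). Per library, the median centred level of the large subunit minus that of the small subunit differed by -0.04 between the groups (exact two-sided permutation p = 0.3, smallest possible 0.1), a sign opposite to that of the medians. For the 46 members with bacterial counterparts the median was 0.04, and for the 31 mitochondria-specific members it was 0.07. The per-library difference between these classes (bacterial-type minus mitochondria-specific) changed by 0.01 (exact two-sided permutation p = 0.9), again opposite in sign to the medians, and turned sign with TPM.

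Summed over all 78 members, the WT libraries held 1453, 1527 and 1506 CPM and the Pak4_KO libraries 1650, 1630 and 1398 CPM. The groups overlapped, since Pak4_KO replicate 3 was the lowest of the 6 libraries and the other two Pak4_KO libraries the highest. On the log2 scale the difference was 0.06 (exact two-sided permutation p = 0.5). Without Mrpl38, whose large spread is described below, the sums were 1358, 1402 and 1453 CPM in WT and 1460, 1550 and 1357 CPM in Pak4_KO. Pak4_KO replicate 1 was then just above WT replicate 3, and Pak4_KO replicate 3 was level with WT replicate 1. Counted gene by gene over the 77 members without Mrps12, 34 were highest in Pak4_KO replicate 2, 14 in Pak4_KO replicate 1, and 0 were lowest in Pak4_KO replicate 2. The lowest value was in WT replicate 1 for 26 members and in Pak4_KO replicate 3 for another 26.

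Across the members, transcript length and log2 fold change had a Spearman correlation of 0.256 (77 members without Mrps12), against 0.0746 over 13095 tested genes with a protein-coding transcript in GENCODE. Genes share libraries and are not independent. Length here is that of the longest protein-coding GENCODE transcript of a gene, which need not be the one read in liver. The median log2 fold change was 0.03 in the 25 members with transcripts of 463 to 1056 bases, 0.07 in the 27 members of 1068 to 1962 bases and 0.12 in the 25 members of 2080 to 7300 bases. RNA quality of the samples was not measured here.

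Levels between genes were compared per length, as TPM. The median member stood at 24.5 TPM (quartiles 15.6 and 34.9), against 5.17 TPM for the median tested gene, and the highest member was 34.2-fold above the lowest. The median was 24.8 TPM for the large and 24.5 TPM for the small subunit. Bacterial-type members had a median of 27.0 TPM and mitochondria-specific members 19.7 TPM. After Mrpl38, described next, the highest mean levels were those of Mrpl18 (65.9 TPM), a counterpart of the bacterial protein L18, Mrps18b (65.0 TPM), Mrps21 (62.4 TPM) and Mrpl30 (61.9 TPM). The lowest were Mrps25 (3.39 TPM), Mrps6 (5.04 TPM), Mrpl19 (5.83 TPM), Mrps36 (7.04 TPM) and Mrpl35 (7.82 TPM). Exons of Mrps25 overlap those of Nr2c2 on the opposite strand over 69.8% of their bases, and Mrpl19 overlaps Gcfc2 over 36.0%, so these levels depend on how reads were assigned. The same holds for Mrps36, which has near-identical processed pseudogenes, given below.

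Mrpl38, a mitochondria-specific protein of the large subunit, had both the highest level and the largest spread. It was read at 94.7, 125 and 52.5 CPM in WT and at 190, 80.1 and 40.5 CPM in Pak4_KO. The groups overlapped almost fully, and the highest library was 4.69-fold above the lowest. The within-group SD on the log2 scale was 0.904, against 0.364 for the next member, Mrps36, and a median of 0.142 over the members. Of all tested genes, 0.784% had an SD at or above that of Mrpl38, and the median gene had 0.227. The log2 fold change was 0.19 with an SE of 0.52, and it was -0.59 without Pak4_KO replicate 1, so this gene has no resolved direction.

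The coactivator genes Ppargc1a and Ppargc1b, whose products drive mitochondrial gene expression, also varied between libraries. Ppargc1a was read at 9.24, 16.0 and 4.29 CPM in WT and at 46.2, 12.7 and 11.3 CPM in Pak4_KO. Ppargc1b, chosen after its values were seen, was at 10.5, 23.9 and 6.26 CPM in WT and at 16.4, 10.5 and 6.54 CPM in Pak4_KO. The related coactivator gene Pprc1, also named after its values were seen, was at 34.9, 26.4 and 33.8 CPM in WT and at 24.8, 24.7 and 32.2 CPM in Pak4_KO. The order of the libraries within each group was that of Mrpl38 for Ppargc1a and Ppargc1b and another for Pprc1. With 3 libraries per group this is a description.

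**Figure D4:**
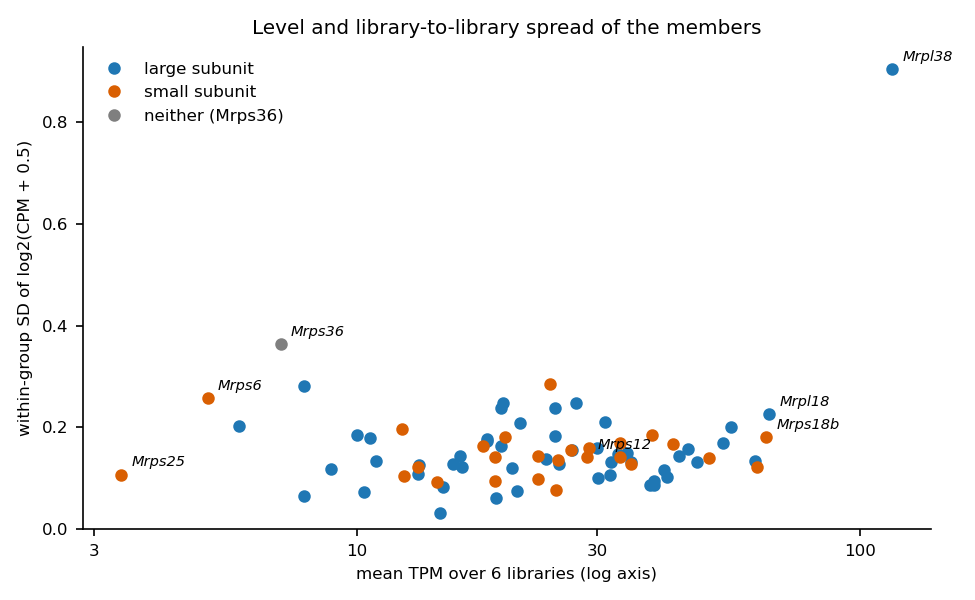
Mean TPM over 6 libraries (log axis) against the within-group SD of log2(CPM + 0.5) for each member, coloured by subunit. Mrpl38 is alone at 116 TPM and an SD of 0.904, and 73 of the 78 members are under 0.25.

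A protein-coding gene on the opposite strand began within 1000 bases upstream of the member's start, or overlapped it by under 500 bases, for 26 of the 78 members (33.3%). The same rule held for 9.52% of the 21951 protein-coding genes in GENCODE M21. Over all tested genes, edgeR called 0.204% lower and 0.265% higher. Of the 22 tested partners that are not members themselves, 1 was called, and 1 call is not read as a trait of such partners. This was Wdfy1, partner of Mrpl44 on chromosome 1, which encodes an endosomal adaptor of Toll-like receptor signalling and was chosen after its values were seen. Wdfy1 was read at 44.2, 46.0 and 45.3 CPM in WT and at 20.5, 22.6 and 18.7 CPM in Pak4_KO. The groups were far apart (log2 fold change -1.13, SE 0.13, edgeR adjusted p = 0.00744). The call was lost without Pak4_KO replicate 3 (adjusted p = 0.0506) and with limma on deposited TPM. There the log2 fold change was -0.66 on the log2(TPM + 1) scale (adjusted p = 0.121) and -0.71 on the log2(TPM + 0.1) scale (adjusted p = 0.103).

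Mrpl44, whose protein has a ribonuclease III-like fold and sits on the large subunit, was at 13.8, 11.4 and 13.5 CPM in WT and at 13.7, 15.4 and 14.0 CPM in Pak4_KO. These groups overlapped (log2 fold change 0.15, SE 0.15). The annotated exons of Mrpl44 and Wdfy1 share 126 bases on opposite strands. In the pair Mrps12 and Sars2 the ribosomal protein gene was the one that fell, and in the pair Mrpl44 and Wdfy1 it was the partner.

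Shared sequence limits how surely some members were counted. Exons of 33 members overlap another annotated gene, for 20 of them a protein-coding gene on the opposite strand, and the strand setting of the counting is not given in the sources used here. Processed pseudogenes of at least 85% identity were found for 31 members. Of 42 such copies among the deposited genes, 8 had enough reads to be tested and 0 were called by edgeR, with 0 at an unadjusted p under 0.05. The copy of Mrpl23, Mrpl23-ps1, was identical over the 540 aligned bases and held 35 to 69 reads in each library. The copy of Mrps18b, Gm13552, was 99.8% identical over 417 bases and held 407 to 519 reads. Mrps36 had several copies. Among them Mrps36-ps1 was 99.3% identical over 306 bases and held 7 to 18 reads. Mrps36-ps2 was 99.0% identical over 309 bases and held 5 to 8 reads.

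Genes acting with the ribosome did not pass the test in either direction. In 6 lists from the same pathway, 0 of 93 genes were called by edgeR over all genes, and the DESeq2 Wald test also called 0. Over all tested genes edgeR called 0.204% lower and 0.265% higher, so 93 genes would give few calls anyway. An unadjusted edgeR p under 0.05 was found for 3 of the 93 (Gtpbp10, Pars2 and Lars2), against 8.21% of all tested genes. All Pak4_KO libraries were above all WT libraries for 4 of 26 assembly factors, 4 of 16 translation factors and 4 of 17 aminoacyl-tRNA synthetases. This also held for 1 of 5 mitoribosome proteins with other symbols and 1 of 16 genes of mitochondrial DNA transcription and copying. It held for 0 of 13 mitochondria-encoded messenger RNAs. Over all tested genes the share was 7.35%. For 1 of the 5 mitoribosome proteins they were below (6.06% of all tested genes). Among 5 mitoribosome proteins with other symbols, 2 were positive. Ptcd3, a small-subunit protein with RNA-binding repeats, was at 0.26 (SE 0.12). The GTP-binding small-subunit protein Dap3 was at -0.16 (SE 0.12).

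Among 26 assembly factors 19 were positive, with a median log2 fold change of 0.10. The GTPase genes Gtpbp10 (0.39, SE 0.16, edgeR adjusted p = 0.578) and Mtg2 (0.26, SE 0.13, adjusted p = 0.664), both acting on the large subunit, had the smallest p-values. Among 16 translation factors 12 were positive (median 0.12). The elongation factor Ts gene Tsfm was at 0.34 (SE 0.16) and the GTPase gene Guf1 at 0.27 (SE 0.14). Among 17 mitochondrial aminoacyl-tRNA synthetases 13 were positive (median 0.08). Pars2, for proline, was at 0.61 (SE 0.24, adjusted p = 0.531) and Lars2, for leucine, at 0.58 (SE 0.24, adjusted p = 0.573).

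Of 16 genes for mitochondrial DNA transcription and copying 10 were positive (median 0.02). Ppargc1a was at 1.25 (SE 0.62, edgeR adjusted p = 0.664) with the overlapping libraries given above, and the DNA polymerase gamma gene Polg at 0.23 (SE 0.11). Of the 13 messenger RNAs that the ribosome translates 8 were positive (median 0.01). The complex I subunit genes ND3 (0.27, SE 0.13) and ND1 (0.26, SE 0.21) had the smallest p-values among these, and neither was called. The library kit selects polyadenylated RNA.

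**Figure D5:**
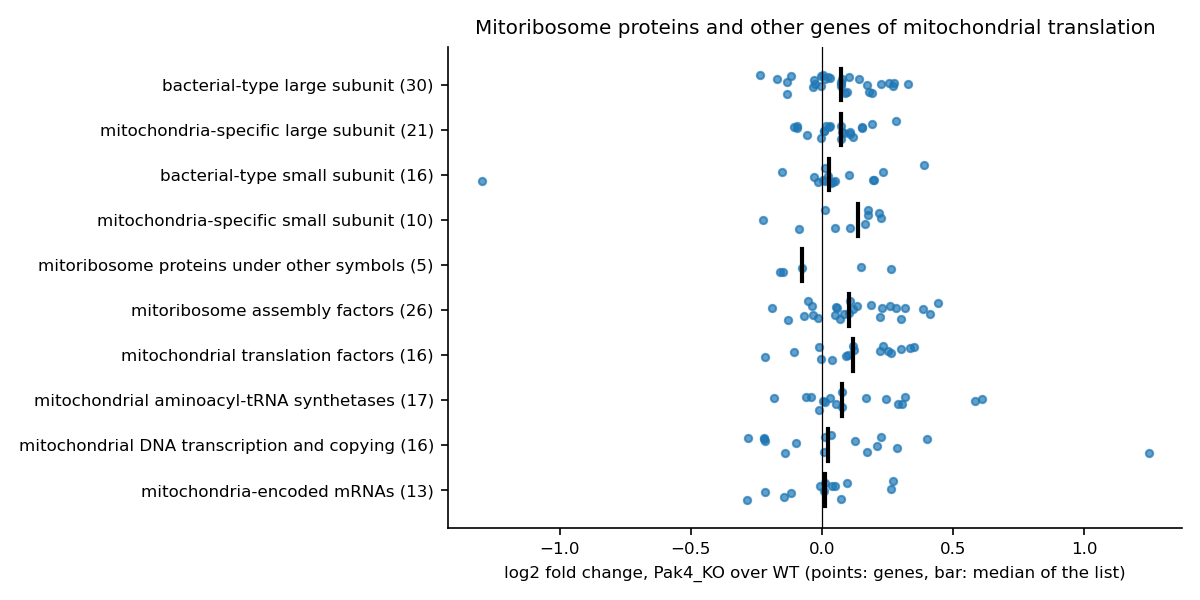
Log2 fold change of each tested gene (points) and the median (bar) for the classes of ribosomal proteins and the 6 lists of the pathway, with the number of tested genes in brackets (3 libraries per group). The list medians lie between -0.07 and 0.14, with Mrps12 at -1.30 and Ppargc1a at 1.25 as the outermost points.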

How the data were processed

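RNA of whole liver was stored in RNAlater and extracted with Trizol, and libraries were made with the Illumina TruSeq Stranded mRNA kit, per the labels' protocols. Per the submitters' processing notes, the build was mm10 and the tools, with no order given, were StringTie 2.1.3b, HISAT2 2.1.0, Bowtie2 2.3.4.1, FastQC 0.11.7 and bcl2fastq 2.20.0. Which annotation release and strand setting were used, and how reads with several matches were handled, is not given in the sources used here. In 1 table the authors deposited read counts per gene as whole numbers, not normalized, per the file headers. Its FPKM, also deposited by the authors, were not used. The deposited TPM served to compare levels between genes and in alternatives. Values of 2 reads outnumbered values of 1 in each library, so a pair may have been counted as 2 reads.

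The count model was that of edgeR 4.0.16 under R 4.3.3 (filterByExpr, TMM, quasi-likelihood F-test, two-sided, no block) over 16197 genes. A gene is called when its p, adjusted after Benjamini and Hochberg, is under 0.05. The SE was derived from the fold change and the F statistic. Per-library values are log2(CPM + 0.5), compared by exact permutation over samples. The edgeR fit was also run on counts simulated from its own means and dispersions. Its outcome is not given here, and such a run cannot show whether the model fits these libraries. Alternatives used DESeq2 1.42.0, limma 3.58.1, other scalings and filters, a block for the replicate number, and fits without 1 library. Coordinates come from RefSeq for GRCm38.p6, also called mm10, and pairs, overlaps and copies from GENCODE M21, with copies found by blastn.

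The text names Mrps12, Pak4, Sars2, called members, the 5 highest and lowest members by log2 fold change and by TPM, the members on chromosome 7, the 2 genes of smallest p in each list without calls, the nearest genes and partners. The members and lists were chosen with earlier results of these data known.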

Additional observations from a re-analysis of the deposited data

How the results depend on the processing

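Mrps12 was the 1 member called in the reported fit and in all 10 alternatives that kept every library (adjusted p from 1.256e-10 with DESeq2 to 0.0310 with the replicate block), with 0 members called higher in any of them. Leaving out 1 library gave Mrps12 log2 fold changes of -1.36 to -1.20, 0 to 1 members called lower and 0 to 1 genes called near Pak4. The DESeq2 Wald test called 2 genes near Pak4, Mrps12 and Fcgbp. With the replicate number as a block the log2 fold change of Mrps12 was -1.30, and no call given here changed. The labels do not say whether the numbers pair the samples. Same-numbered libraries correlated at 0.0774, -0.281 and 0.18 in their deviations, and other-numbered libraries at -0.322 to 0.252. With 3 libraries per group these values cannot decide whether the samples are paired. Library size alone moved the median of all genes to 0.06 and that of the members to 0.11, and TPM to 0.06 to 0.08 and 0.12 to 0.13. Of 527 values for 33 of the other named genes, 508 kept direction and call, 6 lost the call and 13 turned sign. Fcgbp, which gained a call with the DESeq2 Wald test, is outside this count. Mrps11 turned to -0.002407 (DESeq2 Wald test), -0.001892 (DESeq2 size factors), -0.01992 (limma-voom) and -0.01148 (replicate block), and ranged from -0.08523 to 0.1519 without 1 library. Mrpl48 ranged from -0.007558 (without WT replicate 1) to 0.1856. Mrpl38 turned to -0.004582 (limma-voom), -0.0119 (replicate block) and ranged from -0.5883 (without Pak4_KO replicate 1) to 0.5756 without 1 library. The difference between bacterial-type and mitochondria-specific members was -0.001143 with TPM and ranged from -0.007852 to 0.02575 without 1 library. The cause of these turns was not tested. At 88 to 144 reads per library for Mrps6 and 69 to 189 for Mrps36, small changes of these genes were not detectable. Mrps2, at 825 to 1468 reads per library, was not called at a log2 fold change of 0.39 either. Small changes of the other members may therefore also have gone uncalled.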
